A study of Rattus norvegicus with 39 samples.

Results

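The genes described here encode the aminoacyl-tRNA synthetases, and their expression was followed in rat liver during ischemia and reperfusion. Members were taken by their names, as genes whose symbol is the 1-letter code of an amino acid followed by "ars" or, for the enzymes of mitochondria, "ars2". The rule uses the names and no measured value. The rule gave 33 genes, with 35 probe sets of the 23409 on the arrays for coding genes. Of these genes, 17 are counted as cytosolic and 16 as mitochondrial. Eprs1, whose product joins both glutamate and proline to their tRNAs, is included although its name is spelled differently. Farsa and Farsb encode the alpha and beta subunits of a single enzyme. The enzymes for glutamine (Qars1) and glycine (Gars1) had no probe set assigned to them alone and were not analysed here.

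The values come from 39 Rat Transcriptome 1.0 arrays (Affymetrix) hybridized with liver RNA, 3 in each of 13 groups. Male Wistar rats 5 to 6 weeks old underwent 30 min of warm ischemia of 70% of the liver, and were sampled after 0, 0.5, 2 or 6 hr of reperfusion, 0 hr being the end of ischemia. The left and median lobes, which were ischemic and are called reperfused, and the right lobe of the same 12 animals, called non-ischemic, were analysed separately. The control groups were 3 shams at each time, handled and operated without occlusion, and 3 unoperated rats. All operated animals received isoflurane. Which lobe of a sham was sampled is not stated. Each array carries RNA of a whole piece of liver, so that fewer cells of a type and less RNA per cell cannot be told apart. Values are given as log2 intensities, which the authors normalized over all arrays. Levels of the members were not compared between probe sets. For markers of cell types intensities were summed over probe sets, so that the brightest marker weighs most in a sum.

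Aminoacyl-tRNA synthetases join each amino acid to the tRNA that reads its codons, the step before the ribosome reads the message. The cytosolic enzymes serve the translation of nuclear genes, and a separate set, also encoded in the nucleus, serves the proteins made inside mitochondria. In mammals several cytosolic enzymes are held with 3 scaffold proteins in the multisynthetase complex, while the others act outside it. Many cytosolic synthetase genes are known targets of Atf4, a transcription factor of the integrated stress response, which binds the C/EBP-ATF response element (CARE). The liver has a high demand for charged tRNA, since it makes most plasma proteins.

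The promoters of the members were read because that element is a feature the naming rule did not use. RefSeq promoters of the GRCr8 rat genome, from 250 bases before to 50 after the start of transcription, were at hand for 32 of the 33 genes, all but Rars1. The core of the element, TGATGCAA on either strand, stood in 7 of 16 cytosolic promoters and in 0 of 16 mitochondrial ones, against 0.795% of all 33469 promoters. With the sixth base left free (TGATGNAA), the same 7 promoters matched, Aars1 at 2 places, against 3.98% of all. The palindromic cyclic AMP response element TGACGTCA was in 0 members and 1.83% of all promoters. The E-box CACGTG, a site of Myc and of clock factors, was in 5 cytosolic promoters (Aars1, Farsb, Iars1, Tars1 and Vars1) and in that of the mitochondrial Ears2, against 6.42% of all. A match of letters is a description and does not show that a factor binds. The stretches with the CARE core follow, each read 5′ to 3′ on the strand of its gene with the core, or its reverse complement, in capitals. The core lay before the start used for the promoter in 5 genes and after it in Cars1 and Yars1. The RefSeq gene models of Aars1, Iars1 and Mars1 begin earlier than that start, so that their cores lie inside the model.
Aars1, chr19:55908354-55908393, plus strand: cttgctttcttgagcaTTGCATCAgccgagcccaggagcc
Iars1, chr17:15193653-15193692, minus strand: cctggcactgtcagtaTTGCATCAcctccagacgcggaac
Mars1, chr7:65023754-65023793, minus strand: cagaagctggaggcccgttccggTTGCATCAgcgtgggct
Nars1, chr18:60275783-60275822, minus strand: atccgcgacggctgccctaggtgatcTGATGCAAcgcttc
Tars1, chr2:62114806-62114845, minus strand: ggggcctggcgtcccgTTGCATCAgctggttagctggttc
Cars1, chr1:208225337-208225360, minus strand: cgccgcggTTGCATCAgattctgg
Yars1, chr5:146820193-146820212, plus strand: agctcagcTGATGCAAcctg

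A further stretch is shown because it links a cytosolic with a mitochondrial member. Hars1 and Hars2, the histidine enzymes of the cytosol and of mitochondria, start head to head on opposite strands. The following 143 bases, printed as the plus strand, lie between the starts used for their RefSeq promoters and hold none of the motifs searched. The RefSeq gene model of Hars2 begins earlier, inside this stretch.
Hars1-Hars2, chr18:28672713-28672855, plus strand: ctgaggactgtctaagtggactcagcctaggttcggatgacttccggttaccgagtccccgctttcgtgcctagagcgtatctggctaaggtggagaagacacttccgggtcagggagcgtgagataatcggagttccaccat

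Across the 13 groups the cytosolic genes ranged further than the mitochondrial ones. The span from the lowest to the highest group mean had a median of 1.66 on the log2 scale for the 17 cytosolic genes (0.51 to 2.58) and of 0.57 for the 16 mitochondrial genes (0.26 to 1.48). The highest of the 4 group means stood at 6 hr for 12 of 17 cytosolic genes in the reperfused lobes, 15 in the non-ischemic lobes and 11 in the shams. For the mitochondrial genes it did so in 7, 8 and 5 of 16. A filter of the study on variable probe sets, which required an interquartile range above 0.258, kept 27 members, 16 cytosolic and 11 mitochondrial. Kars1, Aars2, Fars2, Nars2, Pars2 and Vars2 did not pass it, and Pars2, with a mean of 4.68, was dim. The counts of calls below are of these 27, read against the same share of all 11704 probe sets that passed. Calls are at a q-value below 0.05 in limma, unless stated otherwise.

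**Figure D1:**
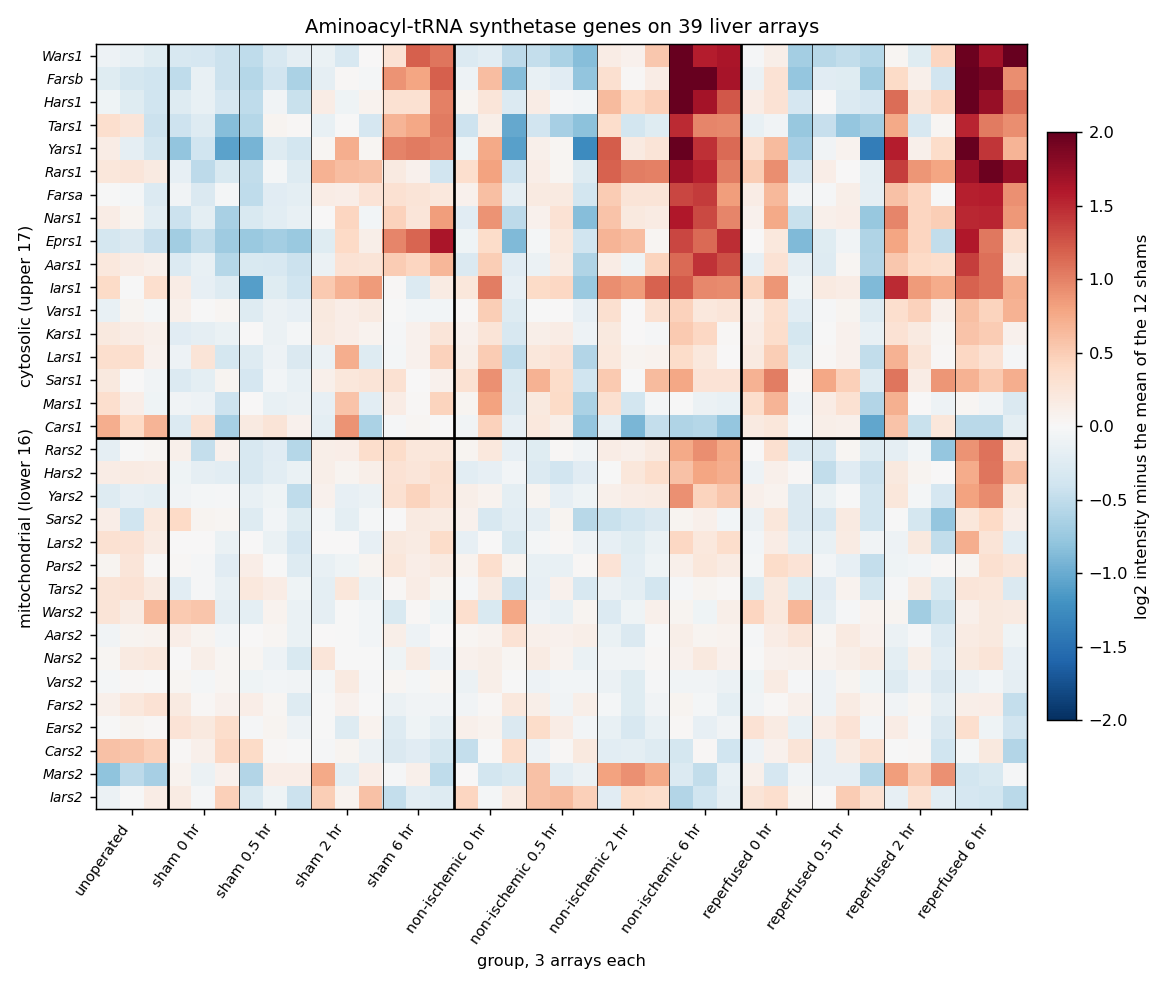
Log2 intensity of the 33 synthetase genes (rows) on the 39 arrays (columns, 3 per group), as the difference from the mean of the 12 shams. The top 10 rows, the cytosolic genes from Wars1 to Aars1, are darkest on average at 6 hr in both lobes and paler in the 6 hr shams (except Eprs1), with smaller differences of either sign elsewhere, while most mitochondrial rows stay pale throughout.

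The first comparison asked whether the ischemic lobes differed from the lobes of the same animals that kept their blood supply. At none of the 4 times did a synthetase gene pass the test between the lobes. The counts of members called by limma were 0 at 0, 0.5, 2 and 6 hr, and the counts at an unadjusted p below 0.05 were 0 as well. Of all probe sets tested, 0% were called at 0 and at 6 hr in either direction, 0.128% as higher and 0.0256% as lower in the reperfused lobe at 0.5 hr, and 0.103% and 0.00854% at 2 hr. An unadjusted p below 0.05 was found for 1.55%, 5.31%, 7.53% and 2.11% of probe sets at the 4 times. With the animal as a block, 0 members were called, while 0% of probe sets were called at 0 and 6 hr, 0.513% as higher and 0.461% as lower at 0.5 hr, and 1.18% and 0.666% at 2 hr. With that block 1, 1, 3 and 0 members had an unadjusted p below 0.05, against 7.66%, 15.8%, 13.5% and 3.99% of probe sets. The mean differences of the 33 genes ran from -0.09 to 0.28 at 0 hr, from -0.39 to 0.12 at 0.5 hr, from -0.48 to 0.65 at 2 hr and from -0.41 to 0.39 at 6 hr. The largest was that of Cars1, the cysteine enzyme, at 2 hr. The reperfused minus non-ischemic differences of the 3 animals were 0.77, 0.46 and 0.71, all of the same sign, with a mean of 0.65 ± 0.288 (SE, q = 0.684, and q = 0.0652 with the animal as a block). At 0 hr the largest was Sars1, the serine enzyme, at 0.28 ± 0.372 (SE, q = 1). At 0.5 hr it was Mars2, the mitochondrial methionine enzyme, at -0.39 ± 0.242 (SE, q = 0.999). At 6 hr it was Aars1, the alanine enzyme, whose differences of 0.25, -0.35 and -1.12 did not share a sign.

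**Figure D2:**
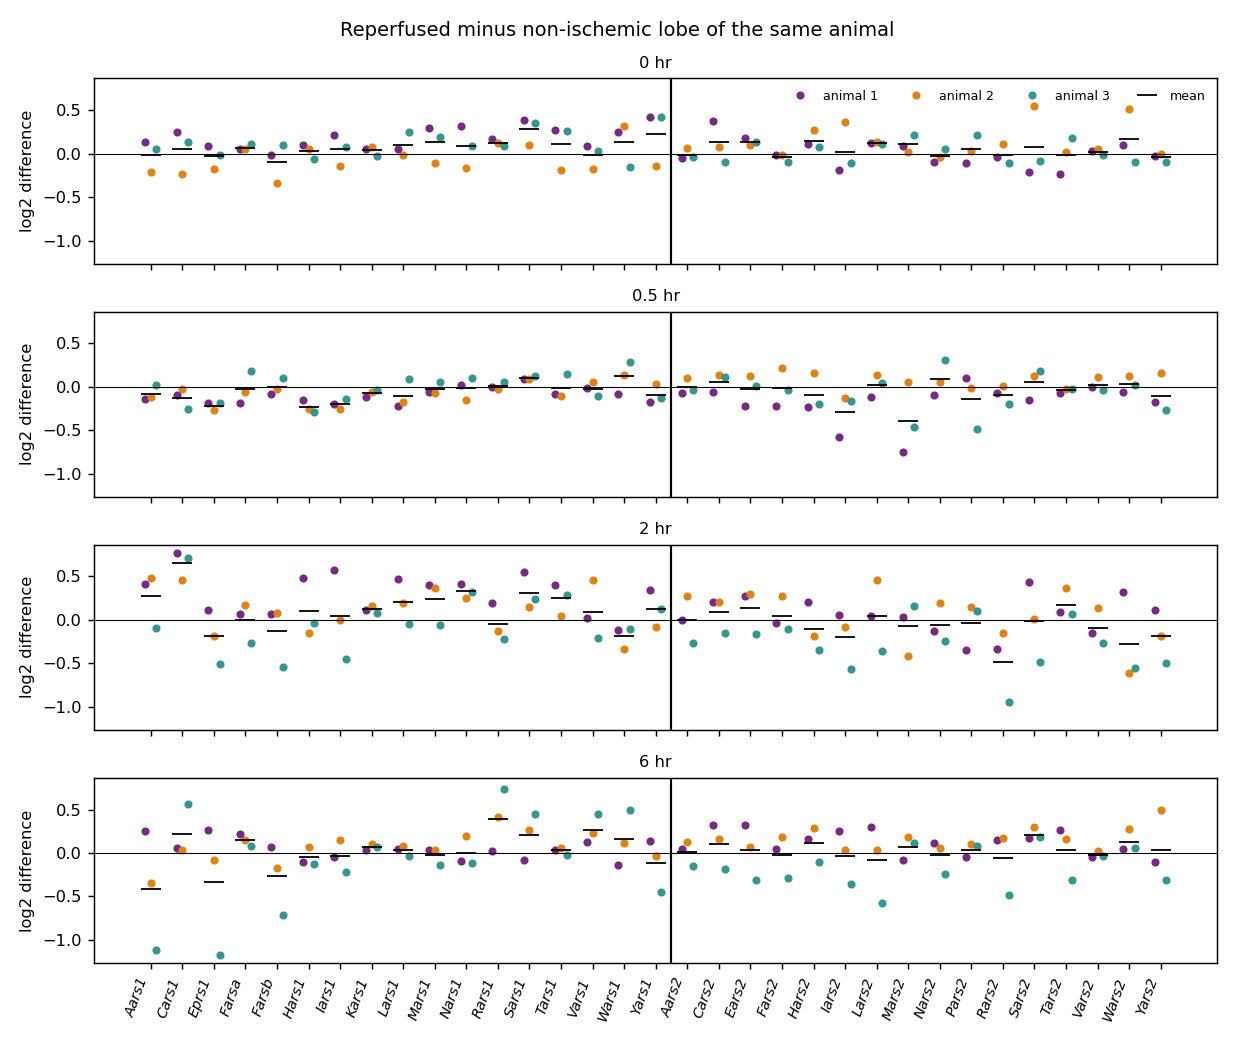
Log2 difference of the reperfused minus the non-ischemic lobe of each animal (points) and its mean (dash) for 33 genes at 4 times, with cytosolic genes left of the line and mitochondrial genes right of it. Animals are numbered within a time, so each panel holds 3 different rats. Cars1 at 2 hr stands above 0 in all 3 animals, and animal 3 at 6 hr lies far below 0 for Aars1, Eprs1 and Farsb.

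One animal stood apart at 6 hr. The reperfused lobe of animal 3 had the lowest value of the 3 arrays for 25 of the 33 members, among them Aars1 (12.96 against 14.17 and 13.89), Eprs1 (14.63 against 15.91 and 15.37) and Farsb (10.56 against 11.85 and 11.52). For 5 members, Cars1, Mars2, Sars1, Vars1 and Wars1, it had the highest. The count of members called at 6 hr is therefore also given without this array.

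Each lobe was next compared with the 12 shams pooled over the 4 times, as the study did. Both lobes were set against the same shams, so their results are not independent of each other. At 0 hr, 0 members were called in either lobe, with 2 at an unadjusted p below 0.05 in the reperfused and 0 in the non-ischemic lobes. Among all probe sets 0% were called in the reperfused lobes in either direction, with an unadjusted p below 0.05 for 15%. For the non-ischemic lobes the shares were 0.0342% called higher, 0% called lower and 14.4% at that p. The largest difference in the reperfused lobes was that of Sars1, at 0.58 ± 0.177 (SE, q = 0.167). In the non-ischemic lobes it was that of Tars1, the threonine enzyme, at -0.44 ± 0.337 (SE, q = 0.567).

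At 0.5 hr, 0 members were called in either lobe, with 1 at an unadjusted p below 0.05 in each. Among all probe sets 1.27% were called higher and 0.359% lower in the reperfused lobes, and 18% had that p. The shares were 0.846%, 0.325% and 17.3% for the non-ischemic lobes. The direction of the cytosolic genes depended on the shams used. Against the pooled shams the group means of 16 of 17 were lower in the reperfused and 13 of 17 in the non-ischemic lobes, with median differences of -0.19 and -0.07 over the 16 that passed the filter. The medians of all probe sets were -0.03 and -0.02. Against the 3 shams of 0.5 hr, 14 of 17 had a higher mean in each lobe, with medians of 0.09 and 0.15 over the 17, and Cars1, Tars1 and Wars1 a lower one. The largest differences were those of Tars1 in the reperfused lobes, at -0.63 ± 0.313 (SE, q = 0.3), and of Wars1, the tryptophan enzyme, in the non-ischemic lobes, at -0.65 ± 0.313 (SE, q = 0.297). Against the 3 shams of 0.5 hr, Iars2, the mitochondrial isoleucine enzyme, was higher in the non-ischemic lobes by 0.84 ± 0.148 (SE, q = 0.0104), where 5.97% of probe sets were called higher and 6.05% lower.

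At 2 hr, 4 members rose in the reperfused lobes and 0 fell, where 7.6% of probe sets rose and 5.15% fell. Of the same members 3 rose and 0 fell in the non-ischemic lobes, against 8.09% and 5.89%. The genes were Iars1 and Rars1, which encode the isoleucine and arginine enzymes of the multisynthetase complex, and Mars2 in both lobes, and Sars1 in the reperfused lobes. Rars1 read 11.33, 10.84 and 10.74 in the 3 reperfused lobes, and its values in the non-ischemic lobes were 11.13, 10.98 and 10.96. In the 12 shams its lowest, median and highest values were 9.43, 9.85 and 10.64. All 6 lobes lay above every sham, by 1.02 ± 0.253 (SE, q = 0.0157) and 1.07 ± 0.244 (SE, q = 0.0111) on average. Iars1 read 12.78, 12.13 and 12.02 in the reperfused and 12.21, 12.14 and 12.46 in the non-ischemic lobes, against 10.18, 11.21 and 12.14 as the lowest, median and highest sham. Its differences were 1.03 ± 0.307 (SE, q = 0.0367) and 0.99 ± 0.295 (SE, q = 0.0352), with overlap. Mars2, the only mitochondrial gene called at this time, rose by 0.75 ± 0.204 (SE, q = 0.024) and 0.83 ± 0.199 (SE, q = 0.0138), and Sars1 by 0.70 ± 0.175 (SE, q = 0.0162) in the reperfused lobes. In the 2 hr shams Rars1 read 10.64, 10.57 and 10.54 and Iars1 11.81, 11.98 and 12.14, the highest values of the 12 shams for both genes. Against these 3 shams alone, 0 members were called in either lobe, where 1.31% of probe sets were called higher and 0.436% lower for the reperfused and 0.00854% and 0% for the non-ischemic tissue. The count in the reperfused lobes was 0 without replicate 1, 2 without replicate 2 and 1 without replicate 3 of the 2 hr group, and that in the non-ischemic lobes was 0 without replicate 1 and 0 without replicate 2.

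At 6 hr most cytosolic synthetase genes were higher in both lobes than in the shams. In the reperfused lobes 15 of the 27 members rose and 0 fell, where 20% of all probe sets rose and 9.3% fell. The non-ischemic lobes also had 15 that rose and 0 that fell, where 15.4% rose and 9.81% fell. In each lobe 12 of 16 cytosolic and 3 of 11 mitochondrial genes rose. The median difference of the cytosolic genes was 1.09 in the reperfused and 1.24 in the non-ischemic lobes, that of the mitochondrial genes 0.15 and 0.02, and that of all probe sets 0.02 and 0.00. The arrays of 8 members lay above all 12 shams in the reperfused lobes and those of 13 members in the non-ischemic lobes, where 6.96% and 5.39% of all probe sets did so. Without replicate 1 of the reperfused 6 hr group 9 members rose, and without replicate 1 of the non-ischemic 6 hr group 9 rose. Without replicate 3 of the reperfused group, the animal that stood apart, 16 rose.

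Among the enzymes outside the multisynthetase complex, 10 of 11 cytosolic genes rose in the reperfused and 9 of 11 in the non-ischemic lobes. Of all probe sets 20% and 15.4% did so. Wars1, which is also known as an interferon-induced gene, had the largest difference in the reperfused lobes. It read 11.05, 10.77 and 11.24 there, 11.19, 10.66 and 10.73 in the non-ischemic lobes, and 8.59, 8.85 and 10.29 as the lowest, median and highest of the shams. All 6 lobes lay above the highest sham, and the differences were 1.92 ± 0.316 (SE, q = 0.000445) and 1.76 ± 0.318 (SE, q = 0.00131), or 3.79-fold and 3.39-fold. Hars1 read 11.92, 11.56 and 10.94 in the reperfused and 12.02, 11.49 and 11.06 in the non-ischemic lobes, against 9.31, 9.74 and 10.83 in the shams in the same order. No lobe overlapped a sham, and its differences were 1.65 ± 0.26 (SE, q = 0.000326) and 1.71 ± 0.257 (SE, q = 0.00047).

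Both subunits of the phenylalanine enzyme rose. Farsb read 11.85, 11.52 and 10.56 in the reperfused and 11.78, 11.69 and 11.27 in the non-ischemic lobes, against 8.99, 9.46 and 10.82 in the shams, so that a single reperfused lobe, that of animal 3, fell within their range. Its differences were 1.69 ± 0.371 (SE, q = 0.00311) and 1.95 ± 0.343 (SE, q = 0.00116), or 3.22-fold and 3.88-fold. Farsa read 9.59, 9.60 and 8.95 in the reperfused and 9.37, 9.44 and 8.87 in the non-ischemic lobes, against 7.52, 8.08 and 8.34 in the shams. It did not overlap them, and differed by 1.34 ± 0.18 (SE, q = 0.000107) and 1.19 ± 0.174 (SE, q = 0.000368).

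Of the genes with a CARE core in the promoter, Aars1, Iars1, Nars1, Tars1 and Yars1 rose in both lobes, and Cars1 and Mars1 passed in neither. Wars1, Hars1, Farsa, Farsb and Sars1 rose in both lobes without the core in the window read, as did the mitochondrial Hars2, Rars2 and Yars2. Vars1 rose without it in the reperfused and Eprs1 in the non-ischemic lobes. Rars1, whose promoter was not at hand, rose in both. Nars1, the asparagine enzyme, read 13.43, 13.44 and 12.79 in the reperfused and 13.52, 13.24 and 12.90 in the non-ischemic lobes, all above the shams (11.27, 11.81 and 12.75 as lowest, median and highest), by 1.30 ± 0.251 (SE, q = 0.00131) and 1.30 ± 0.246 (SE, q = 0.00175). Yars1, the tyrosine enzyme, varied most among the lobes. It read 12.95, 12.01 and 11.26 in the reperfused and 12.81, 12.04 and 11.71 in the non-ischemic lobes, and up to 11.62 in the shams. Its differences were 1.49 ± 0.458 (SE, q = 0.0221) and 1.60 ± 0.434 (SE, q = 0.0139). The call was lost without reperfused replicate 1 (q = 0.166) or 2 (q = 0.0673) and without non-ischemic replicate 1 (q = 0.116). Tars1 rose by 1.17 ± 0.32 (SE, q = 0.0117) and 1.14 ± 0.318 (SE, q = 0.016), the former not called without reperfused replicate 1 (q = 0.0756). Aars1 rose by 0.88 ± 0.271 (SE, q = 0.0222) and 1.29 ± 0.233 (SE, q = 0.00136), in the non-ischemic lobes without overlap.

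Cars1 and Mars1, the cysteine and methionine enzymes, were not called in either lobe. Cars1 read 7.86, 7.86 and 8.20 in the reperfused and 7.80, 7.83 and 7.63 in the non-ischemic lobes, with shams from 7.74 to 9.30 around a median of 8.42. The non-ischemic lobes lay at the low end of the shams. Its differences of -0.43 ± 0.242 (SE, q = 0.201) and -0.64 ± 0.238 (SE, q = 0.0574) did not pass. Against the 3 shams of 6 hr alone Cars1 was lower in the non-ischemic lobes, by -0.65 ± 0.128 (SE, q = 0.0192). Mars1 differed by -0.11 ± 0.171 (SE, q = 0.665) and -0.09 ± 0.167 (SE, q = 0.736). Sars1 rose by 0.65 ± 0.139 (SE, q = 0.00269) and 0.43 ± 0.151 (SE, q = 0.0448). Vars1, the valine enzyme, rose by 0.57 ± 0.112 (SE, q = 0.00143) in the reperfused lobes and stood 0.30 ± 0.112 (SE, q = 0.0592) above the shams in the non-ischemic lobes. The lobes themselves differed by 0.27 ± 0.152 for Vars1 (SE, q = 0.998).

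**Figure D3:**
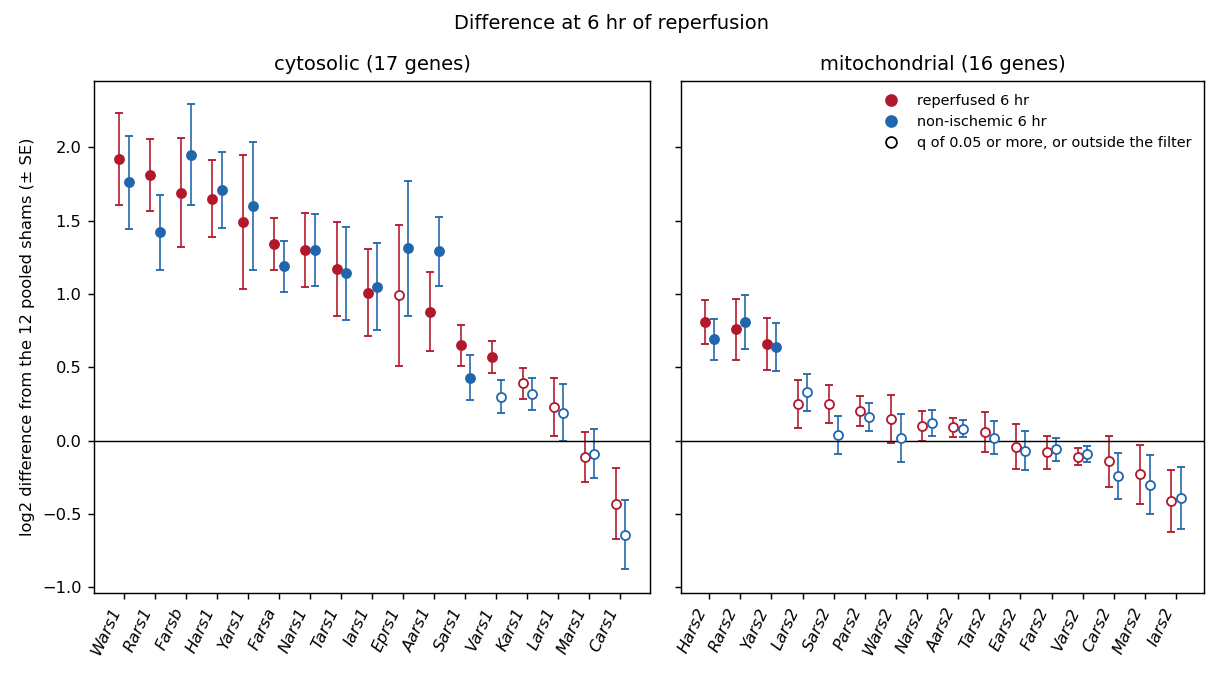
Log2 difference of the reperfused (red) and non-ischemic (blue) lobes at 6 hr from the 12 pooled shams for 17 cytosolic and 16 mitochondrial genes, with SE; open symbols did not pass a q of 0.05 or lay outside the filter. Of the cytosolic genes, 12 carry a filled symbol in each lobe, from Wars1 at 1.92 down to Vars1 at 0.57 in the reperfused lobes, and 3 mitochondrial genes do.

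Within the multisynthetase complex the members differed from each other. Of its 6 measured enzymes, 5 passed the filter, and 2 rose in the reperfused and 3 in the non-ischemic lobes. Among all probe sets that passed, 20% and 15.4% rose. Rars1 read 11.66, 11.91 and 11.70 in the reperfused and 11.64, 11.50 and 10.97 in the non-ischemic lobes, all above the highest sham of 10.64. Its differences were 1.81 ± 0.246 (SE, q = 0.000117) and 1.42 ± 0.256 (SE, q = 0.00134), or 3.5-fold and 2.67-fold. Iars1 read 12.46, 12.39 and 12.01 and 12.51, 12.24 and 12.23, with differences of 1.01 ± 0.298 (SE, q = 0.0181) and 1.05 ± 0.295 (SE, q = 0.0168). Eprs1, the fused glutamate and proline enzyme, read 15.91, 15.37 and 14.63 in the reperfused and 15.65, 15.45 and 15.80 in the non-ischemic lobes. The shams spread from 13.57 to 15.95, with a median of 13.95, and overlapped both lobes. Its differences were 0.99 ± 0.482 (SE, q = 0.137), which did not pass, and 1.31 ± 0.46 (SE, q = 0.0462), a call that most leave-outs of single arrays ended. Lars1, the leucine enzyme and a sensor of leucine for mTORC1, differed by 0.23 ± 0.198 (SE, q = 0.418) and 0.19 ± 0.194 (SE, q = 0.501). Kars1, the lysine enzyme, which also provides the mitochondrial form, lay outside the filter, with differences of 0.39 ± 0.108 and 0.32 ± 0.109 (SE). Without the filter, where 11.5% and 8.47% of probe sets rose, it was called in the reperfused lobes (q = 0.0222) and not in the non-ischemic lobes (q = 0.0638). The scaffold proteins of the complex, which are no members, rose as well in the reperfused lobes: Aimp1 by 0.90 ± 0.139 (SE, q = 0.000291), Aimp2 by 0.79 ± 0.244 (SE, q = 0.022) and Eef1e1 by 0.81 ± 0.21 (SE, q = 0.00884). In the non-ischemic lobes Aimp1 rose by 0.78 and Eef1e1 by 0.61, and Aimp2, at 0.59, had a q of 0.0845.

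Structural class follows the fold of the catalytic domain. Against the pooled shams, 5 of 9 cytosolic class I and 7 of 7 cytosolic class II genes rose in each lobe at 6 hr. Of all probe sets 20% rose in the reperfused and 15.4% in the non-ischemic lobes. In the 6 hr shams 3 and 5 of the genes of these classes were higher than in the earlier shams, where 5.96% of probe sets were. Over all 9 class I and 8 class II cytosolic genes, the median differences were 0.99 and 1.24 in the reperfused lobes, with 1.05 and 1.24 for the non-ischemic lobes. The difference between the classes was not tested.

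Of the mitochondrial enzymes, Hars2, Rars2 and Yars2 rose at 6 hr in both lobes. These charge the histidine, arginine and tyrosine tRNAs of mitochondria. Hars2 read 8.90, 9.23 and 8.77 in the reperfused and 8.74, 8.94 and 8.88 in the non-ischemic lobes, with shams from 7.84 to 8.48. It did not overlap them and rose by 0.81 ± 0.149 (SE, q = 0.000959) and 0.69 ± 0.14 (SE, q = 0.00265), while Hars1, its head-to-head neighbour, rose by the larger values given above. Rars2 rose by 0.76 ± 0.209 (SE, q = 0.0122) and 0.81 ± 0.186 (SE, q = 0.00544), and Yars2 by 0.66 ± 0.178 (SE, q = 0.0105) and 0.64 ± 0.165 (SE, q = 0.0108). The other 13 mitochondrial genes lay between -0.41 and 0.25 in the reperfused lobes. Iars2 was the lowest, at -0.41 ± 0.21 (SE, q = 0.155) and -0.39 ± 0.213 (SE, q = 0.2). Mars2, which had risen at 2 hr, stood at -0.23 ± 0.203 (SE, q = 0.415) and -0.30 ± 0.202 (SE, q = 0.286).

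**Figure D4:**
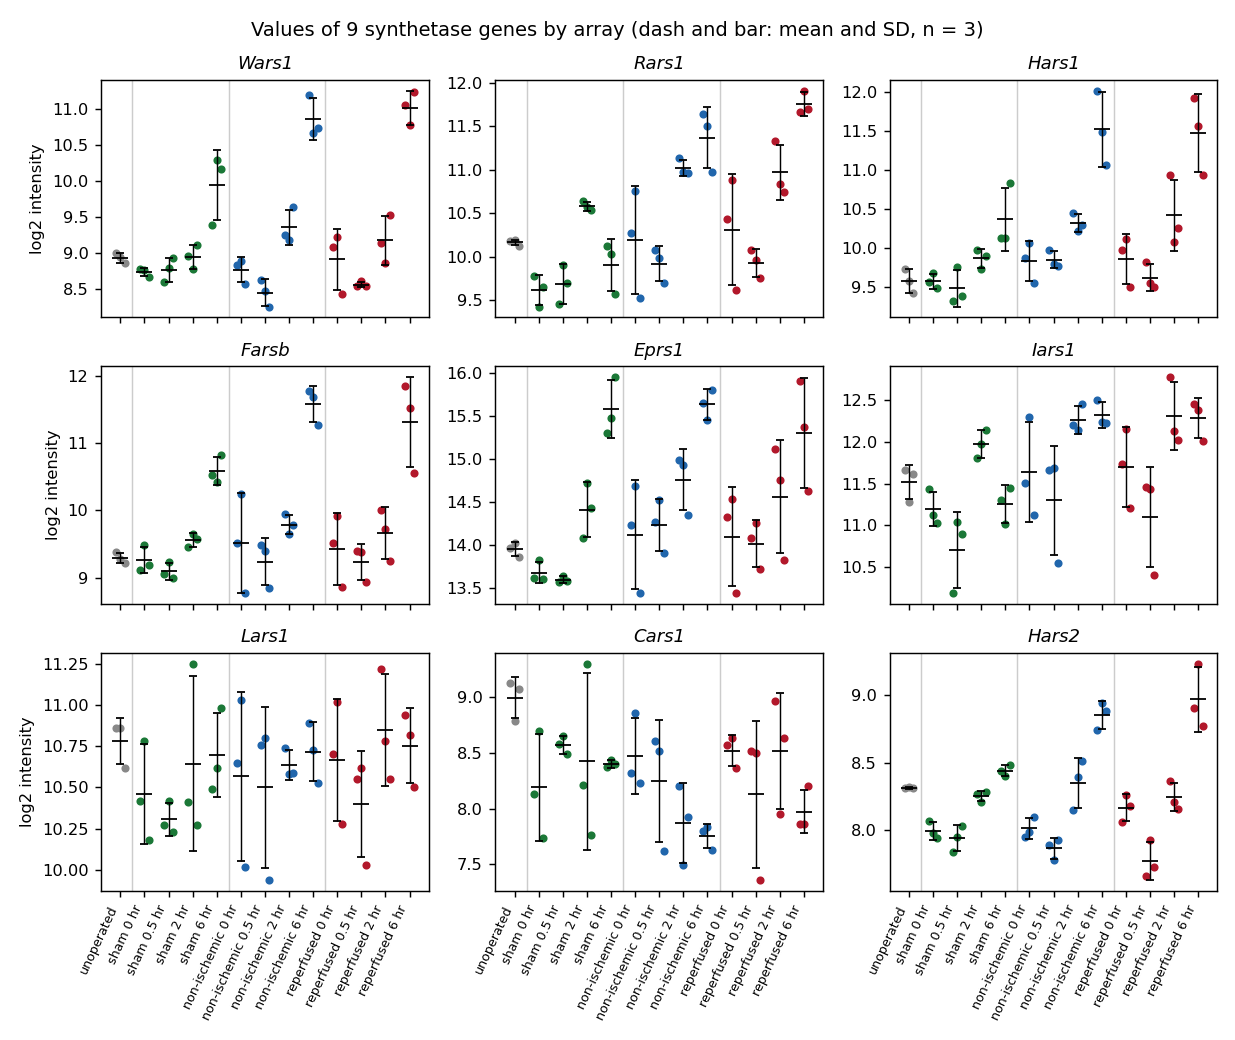
Log2 intensity of 9 genes on every array, by group (grey unoperated, green sham, blue non-ischemic, red reperfused), with mean and SD of 3 arrays; each panel has its own scale. Wars1, Hars1 and Farsb rise at 6 hr in shams and further in both lobes, Eprs1 reaches 15.30 to 15.95 in the 6 hr shams as well, Rars1 and Iars1 peak at 2 hr among shams, and Cars1 and Lars1 have no called difference from the pooled shams at 6 hr.

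The pooled shams span 4 times, so the shams were tested among themselves. In the 6 hr shams 9 of 27 members were higher than in the 9 earlier shams and 0 were lower, where 5.96% of probe sets were higher and 5.62% lower. They were 8 cytosolic genes and Yars2. Eprs1 had the largest difference. It read 15.30, 15.48 and 15.95 in the 6 hr shams and 13.57, 13.64 and 14.72 as the lowest, median and highest of the earlier ones. No array overlapped, and the difference was 1.68 ± 0.247 (SE, q = 0.00103), or 3.21-fold. Yars1 was higher by 1.34 ± 0.299 (SE, q = 0.0122), Farsb by 1.28 ± 0.157 (SE, q = 0.000341), Wars1 by 1.13 ± 0.17 (SE, q = 0.00118) and Tars1 by 1.11 ± 0.181 (SE, q = 0.00204). Hars1, Aars1 and Nars1 followed at 0.72, 0.71 and 0.68, and Yars2 at 0.47. Rars1 and Iars1, which rose in the lobes, stood at -0.06 ± 0.275 (SE, q = 0.922) and -0.04 ± 0.332 (SE, q = 0.955). Without replicate 1, 2 or 3 of the 6 hr shams, 5, 5 and 4 members were called.

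The lobes were then set against the 3 shams of 6 hr alone, with 6 arrays in each fit. In the reperfused lobes 6 members were higher and 0 lower (11.7% and 7.06% of probe sets), namely Rars1 by 1.85, Hars1 by 1.11, Farsa by 1.09, Wars1 by 1.07, Iars1 by 1.03 and Vars1 by 0.61. For the non-ischemic lobes 8 were higher and 1 lower (8.98% and 6.24% of probe sets). These were Rars1 by 1.46, Hars1 by 1.16, Iars1 by 1.08, Farsb by 0.99, Farsa by 0.94, Nars1 by 0.79, Aars1 by 0.75 and Rars2 by 0.54, and Cars1 as given above. Eprs1, Yars1 and Tars1, which were high in the 6 hr shams too, passed in neither lobe.

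Whether the change at 6 hr exceeded that in shams was tested directly, as the 6 hr mean minus the mean of 0, 0.5 and 2 hr in a lobe less the same in the shams. In the reperfused lobes 5 members changed more than in shams and 0 less, where 6.23% of probe sets did the one and 2.87% the other. For the non-ischemic lobes the numbers were 2 more and 0 less, where 2.23% and 1.65% did. Rars1 rose by 1.35 in the reperfused lobes, by 0.99 in the non-ischemic lobes and stood at -0.06 in the shams. The excess was 1.41 ± 0.274 (SE, q = 0.00402) and 1.05 ± 0.274 (SE, q = 0.0374). For Wars1 the changes were 2.14, 2.01 and 1.13, and the excess 1.00 ± 0.26 (SE, q = 0.0207) and 0.87 ± 0.231 (SE, q = 0.0397). Farsa, Hars2 and Vars1 had an excess in the reperfused lobes of 0.82 ± 0.222 (SE, q = 0.0263), 0.53 ± 0.139 (SE, q = 0.0219) and 0.53 ± 0.155 (SE, q = 0.0381). Eprs1 rose by 1.08 and 1.26 in the lobes and by 1.68 in the shams. The count in the reperfused lobes was 3, 2 and 3 without replicates 1, 2 and 3 of the 6 hr shams, and 3 without replicate 1 or 2 of the reperfused 6 hr group. That in the non-ischemic lobes moved between 0 and 4 with single arrays.

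**Figure D5:**
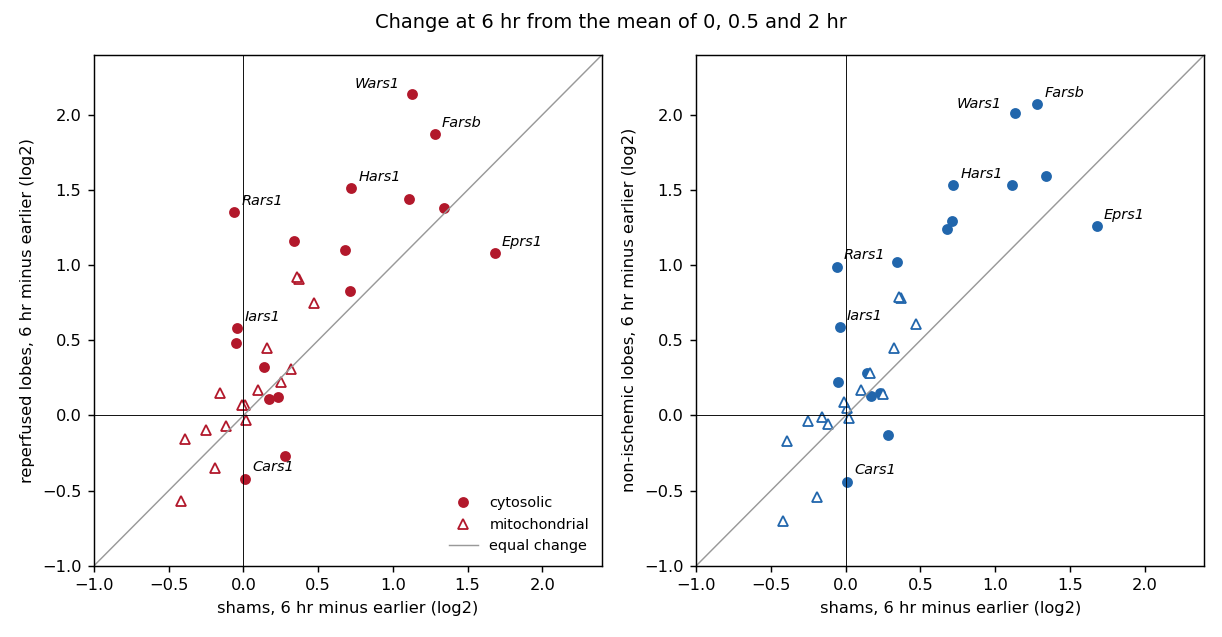
Change at 6 hr from the mean of 0, 0.5 and 2 hr on the log2 scale, in the shams (x) and in the reperfused (left) or non-ischemic (right) lobes (y), for 17 cytosolic (filled) and 16 mitochondrial (open) genes; the line marks equal change. Rars1 lies near 0 for shams and at 1.35 and 0.99 for the lobes, and Eprs1, at 1.68 for shams, lies below the line.

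Over the 4 times, the F-test called 15 of 27 members in the reperfused lobes, 16 in the non-ischemic lobes and 15 in the shams, where 28.6%, 29.3% and 27.4% of probe sets were called. Wars1 had the widest range of time means in the lobes, 2.46 in the reperfused (q = 0.000229) and 2.42 in the non-ischemic lobes (q = 8.68e-05), and Eprs1 the widest in shams, at 1.98 (q = 0.000293). Without reperfused 6 hr replicate 1 or 2, 8 members were called in the reperfused lobes.

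The pooled shams and the unoperated livers differed in 0 of 27 members, with 4 at an unadjusted p below 0.05, where 0.564% of probe sets were higher in shams and 1.68% lower, and 17% had such a p. The largest difference was that of Mars2. It read 5.56, 5.84 and 5.70 in unoperated livers and from 5.78 to 7.12 in shams, a difference of 0.66 ± 0.2 (SE, q = 0.103). Without sham 0 hr replicate 3, 1 member was called, and without sham 0.5 hr replicate 1, 2 were.

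Of other genes of the Atf4 pathway 28 were listed, and 25 passed the filter. In the reperfused lobes 3 of them rose and 0 fell at 0.5 hr, 6 rose and 0 fell at 2 hr, and 2 rose and 1 fell at 6 hr. Of all probe sets 1.27%, 7.6% and 20% rose and 0.359%, 5.15% and 9.3% fell at these times. The counts for the non-ischemic lobes were 3 and 0, 3 and 0, and 2 and 5, where 0.846%, 8.09% and 15.4% of probe sets rose and 0.325%, 5.89% and 9.81% fell. Atf4 itself was not called at any of these times in either lobe, with differences of 0.71 ± 0.257 (SE, q = 0.163), 0.32 ± 0.248 (SE, q = 0.406) and 0.36 ± 0.245 (SE, q = 0.291) in the reperfused lobes. At 2 hr, when 4 synthetase genes were called, Trib3, a pseudokinase, stood 2.60 above the shams in the reperfused lobes, and the amino acid transporter genes Slc7a1, Slc7a11 and Slc3a2 stood 2.14, 2.00 and 1.22 above them, all called. At 6 hr Slc3a2 (1.46 ± 0.289, SE, q = 0.00157) and Ddit3 (0.73 ± 0.202, SE, q = 0.0127) were higher and Nupr1 lower (-1.72 ± 0.324, SE, q = 0.00112) in the reperfused lobes. In the 6 hr shams Asns, asparagine synthetase, and the transporter Slc7a5 were higher by 1.48 and 1.66, and Cth, Sesn2 and Slc38a2 lower, at -3.15, -2.76 and -2.37.

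Several genes of cytosolic translation elongation rose as well. Of the 7 listed, Eef1a1 and Eef1a2 did not pass the filter and were not tested. Of 5 that passed the filter, 4 rose at 6 hr in each lobe: Eef1b2 by 1.09 and 1.05, Eef1d by 0.82 and 0.70, Eef1g by 0.76 and 0.63, and Eef2 by 0.45 and 0.34, where 20% and 15.4% of all probe sets rose. The fifth, Eef2k, a kinase that inhibits Eef2, fell in the non-ischemic lobes by 0.40 and stood at -0.22 (q = 0.25) in the reperfused lobes. In the direct test of the 6 hr change against that in shams, 0 of these 5 were called higher in either lobe, with Eef1b2 and Eef1g higher at an unadjusted p below 0.05 in both, and Eef2k was called lower in the non-ischemic lobes (-0.73 ± 0.171, SE, q = 0.0236). Of 8 mitochondrial translation factors, 4 rose in the reperfused and 5 in the non-ischemic lobes, among them Mtif2, an initiation factor, by 0.93 and 0.79.

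Markers of other cells differed from the shams at 6 hr, and some of them at earlier times too. Of all probe sets tested, 20% rose and 9.3% fell in the reperfused lobes at 6 hr, and 15.4% and 9.81% in the non-ischemic lobes. The log2 of the summed intensity of 6 neutrophil markers lay between 7.45 and 9.22 in the lobes at 6 hr, the highest in a reperfused lobe, and between 7.40 and 7.70 in the 6 hr shams. In the earlier shams it lay between 6.93 and 7.17. The reperfused lobes had sums between 7.08 and 8.49 at 0.5 hr and between 7.16 and 7.84 at 2 hr. Of the 6 markers, 5 had a mean under 5 over the 39 arrays. Of the 5 bile duct markers, only Epcam and Spp1 passed the filter, and both rose in the reperfused lobes at 6 hr. The median difference was 1.92 for these 2 and 0.18 over all 5. The sum lay between 8.37 and 12.01 there, against 7.98 and 8.33 as the limits in shams. In the reperfused lobes it was also between 8.38 and 8.93 at 0.5 hr and between 8.71 and 9.14 at 2 hr. The sum of 6 stellate cell markers lay between 11.74 and 12.61 in the lobes at 6 hr, below all 12 shams (12.91 to 14.49), and Lrat fell in both lobes. That sum was also low in the lobes at 2 hr, between 11.53 and 12.65. Lrat weighed most in it, with a mean of 12.82 over the arrays against 9.04 for the next marker, Pdgfrb. In the reperfused lobes at 6 hr only Lrat was called, and the median difference of the 6 markers was -0.24. Of 7 endothelial markers, Kdr and Stab2 fell in the reperfused and Stab2 in the non-ischemic lobes, and of 7 macrophage and Kupffer cell markers, Adgre1 fell in both and Csf1r and Vsig4 in the non-ischemic lobes. The macrophage sums, with limits of 14.10 and 15.11 in the lobes at 6 hr, overlapped those of the shams (14.24 to 15.67). The 10 hepatocyte markers, none of them dim, had sums between 21.95 and 22.27 on the 39 arrays. Only 4 of them passed the filter, and 3 of these 4 (Ass1, Cps1 and Tat) fell in the reperfused lobes at 6 hr. The part of these cells in the synthetase values was not tested.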

How the data were processed

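The authors deposited intensity values on a linear scale, made in Affymetrix Expression Console 1.0 by RMA after signal space transformation, over all arrays at once. The array's genome build is not given in the sources used here. A single gene symbol belonged to 19778 of the 23409 probe sets, several to 419 and none to 3212. The log2 of each value was taken with no further normalization; the arrays' median intensities were 39.6 to 43.6. Where a gene had 2 probe sets (Iars1 and Mars2), that with the higher mean was used.

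Each comparison was a fit of its groups alone with limma 3.58.1 in R 4.3.3, on the 11704 probe sets whose interquartile range over the 36 arrays of operated animals exceeded 0.258. The q-values are Benjamini-Hochberg adjusted p-values over these, and SE is the moderated standard error. Promoters, figures and counts used Python 3.11.15. The fits were tested first on simulated data with known changes. The fit between the lobes at 0.5 hr recovered 2% of log2 changes of 0.5 and 42% of changes of 1. For the reperfused lobes against pooled shams at 6 hr these shares were 28% and 80%. A small difference between the lobes could therefore be missed.

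Both lobes came from 1 animal and so form a pair, matched here by replicate number. Over the most variable probe sets, deviations from group means correlated at 0.1 to 0.9 between the lobes in the 12 animals. At 6 hr these correlations were 0.1, 0.65 and 0.22, and at the earlier times 0.63 to 0.9. Between lobes and shams of the same number the correlations ran from -0.26 to 0.17. The precision is limited by 3 arrays per group. Members and lists were chosen with earlier results of these data known. Named with values were, in each comparison, up to 8 called members with the largest difference, or the largest where none was called, the scaffold proteins, and of the Atf4 pathway Atf4 and up to 5 in each direction; other members, elongation factors and Mtif2 were named after their values were seen. Alternatives changed the filter, normalization, probe sets, shams, fit and block, and left out each array.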

Additional observations from a re-analysis of the deposited data

Results flagged for a closer look

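The change at 6 hr against that in shams differed, by the test of the difference itself, for Rars1, Wars1, Farsa, Hars2 and Vars1 in the reperfused lobes and for Rars1 and Wars1 in the non-ischemic lobes. In the reperfused lobes the excess over shams was 1.41 for Rars1, 1.00 for Wars1, 0.82 for Farsa, 0.53 for Hars2 and 0.53 for Vars1 on the log2 scale. In the non-ischemic lobes it was 1.05 for Rars1 and 0.87 for Wars1. Both tests used the same 12 shams.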

How the results depend on the processing

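The limits are 3 arrays per group, shams of unstated lobe, and a dim probe set for Pars2. Counts of called members with the 3 shams of the same time in place of the 12 were 0 in the reperfused and 0 in the non-ischemic lobes at 2 hr, 1 in the non-ischemic lobes at 0.5 hr, and 6 and 9 at 6 hr. With the replicate block as well they were 0, 0, 1, 3 and 6, although shams and lobes share only a number. The block changed no call between the lobes, where it gave 0 at each time. A fit to all 39 arrays called 2 members in the reperfused and 3 in the non-ischemic lobes at 0.5 hr, and 2 between shams and unoperated livers. Without the 6 hr shams, 5 members were called in the non-ischemic lobes at 2 hr. For the change at 6 hr against shams, quantile normalization gave 2 in the reperfused lobes and no filter 1 in the non-ischemic lobes. The cause of these moves was not tested. Fits against shams of 1 time also held fewer arrays.

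With single arrays left out, the counts ran from 0 to 1 in the reperfused lobes at 0 hr, 0 to 6 at 2 hr and 9 to 16 at 6 hr against pooled shams, and from 0 to 4 at 2 hr and 9 to 16 at 6 hr in the non-ischemic lobes. They ran from 4 to 11 in the 6 hr shams, 0 to 2 between shams and unoperated livers, 8 to 16, 11 to 17 and 12 to 16 over time in reperfused lobes, non-ischemic lobes and shams, and 2 to 6 and 0 to 4 for the change at 6 hr in the reperfused and non-ischemic lobes. Between the lobes, and for the non-ischemic lobes at 0 and 0.5 hr and the reperfused lobes at 0.5 hr, they stayed at 0. The count at 0 hr was 1 without reperfused 0 hr replicate 3. The change at 6 hr in the non-ischemic lobes, with 2 genes called, moved with many single arrays. It was 0 without replicate 1 of the sham 0 hr, sham 2 hr, non-ischemic 6 hr group, replicate 2 of the sham 0.5 hr, non-ischemic 2 hr or non-ischemic 6 hr group, or replicate 3 of the sham 0.5 hr or non-ischemic 0.5 hr group. It was 1 without any of the 6 hr shams, sham 0 hr replicate 2, sham 2 hr replicate 3 or replicate 1 of the non-ischemic 0 hr or 2 hr group, and 4 without non-ischemic 0 hr replicate 2 or 6 hr replicate 3.

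Differences of 2 genes that were not called changed sign. Sars1 between the lobes at 0 hr was -0.03 without non-ischemic 0 hr replicate 3 (up to 0.59 without another array), and Tars1 in the non-ischemic lobes at 0 hr was 0.07 against shams of that time, and 0.07 with the replicate block. Of the values of named members under other settings, 358 kept their call or lack of it, 47 lost a call, 2 gained one and 2 changed sign; with single arrays left out, 879 kept it, 114 lost it, 2 gained one and 1 changed sign.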
